A study of Mus musculus with 6 samples.

Results

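The genes described here encode enzymes of glycolysis, the cytosolic pathway that splits glucose into pyruvate, and of lactate dehydrogenase, which interconverts pyruvate and lactate. They were taken from the deposited expression values of mouse fat by gene symbol: the hexokinases Hk1 and Hk2, the phosphofructokinases Pfkl and Pfkp, the aldolase Aldoa, Gapdh, the phosphoglycerate kinase Pgk1, the enolase Eno1, and the lactate dehydrogenase chains Ldha and Ldhb. Of these 10 genes, 8 had a probe set of their own on the array, out of 18193 genes with one. Gapdh had 3 probe sets that are annotated to several genes, pseudogenes among them, besides 3 control probe sets that were left out by rule, and Eno1 was not analysed here. The 8 genes had 22 probe sets. The one with the highest mean signal over the 6 arrays stood for each gene, and all 8 passed the filter on low signal.

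The study measured fat RNA on 6 Affymetrix arrays, 2 for each of 3 groups of NOD mice, which are prone to autoimmune diabetes. The normoglycemic group held females of 10 weeks. The diabetic group had blood glucose above 300 mg/dl on 3 days in a row. The AAT-treated group had received alpha-1-antitrypsin, a serum protease inhibitor, and had reverted stably with no need of insulin. Age and sex are labelled only for the normoglycemic mice, and the labels name neither the fat depot, the dose nor the number of mice per array. They do not say whether replicate arrays held different animals, so the p-values measure the spread between these samples, which may be technical. All values come from whole fat, in which fewer cells of a type and less RNA per cell cannot be told apart.

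In fat cells glucose enters through an insulin-regulated transporter, is trapped by hexokinase, and supplies glycerol phosphate for triglyceride and acetyl units for fatty acid synthesis. Hk2 is the hexokinase isoenzyme known to respond to insulin, while Hk1 is expressed widely and more evenly. Phosphofructokinase makes the committed step, phosphoglycerate kinase makes the first ATP of the pathway, and lactate dehydrogenase regenerates NAD+ when pyruvate leaves as lactate. Several of these genes, Pgk1 and Ldha among them, are textbook targets of hypoxia-inducible factor (HIF), which binds ACGTG or GCGTG, and MYC and the carbohydrate-responsive factor encoded by Mlxipl bind the E-box CACGTG.

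The bases before the start of transcription are shown for the 4 genes the results turn on. These genes were picked with their differences between the groups and their motifs known. No link between motif and direction can therefore be read from them. The sequences are RefSeq's (GRCm38.p6), 250 bases on the strand of the gene, with capitals marking ACGTG or GCGTG read on either strand and CACGTG. For Pgk1 the window is chrX:106186850-106187099 on the plus strand, and for Ldha chr7:46845554-46845803 on the plus strand, 1 of its 2 annotated starts. For Hk2 it is chr6:82774455-82774704 and for Ldhb chr6:142507958-142508207, both on the minus strand.
Pgk1: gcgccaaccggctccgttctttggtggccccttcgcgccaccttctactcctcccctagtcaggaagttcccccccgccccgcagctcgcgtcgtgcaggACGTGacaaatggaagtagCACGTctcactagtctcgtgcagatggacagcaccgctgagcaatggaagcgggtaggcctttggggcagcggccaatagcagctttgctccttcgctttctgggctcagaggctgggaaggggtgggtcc
Hk2: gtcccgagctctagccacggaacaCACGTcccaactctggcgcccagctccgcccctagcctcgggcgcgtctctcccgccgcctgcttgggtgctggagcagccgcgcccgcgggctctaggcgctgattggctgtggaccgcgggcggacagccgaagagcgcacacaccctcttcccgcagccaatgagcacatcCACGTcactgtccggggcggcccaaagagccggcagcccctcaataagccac
Ldha: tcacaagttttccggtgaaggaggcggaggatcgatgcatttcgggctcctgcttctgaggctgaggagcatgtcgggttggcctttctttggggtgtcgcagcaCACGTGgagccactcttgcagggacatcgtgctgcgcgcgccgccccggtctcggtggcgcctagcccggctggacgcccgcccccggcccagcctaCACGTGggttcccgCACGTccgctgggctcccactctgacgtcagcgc
Ldhb: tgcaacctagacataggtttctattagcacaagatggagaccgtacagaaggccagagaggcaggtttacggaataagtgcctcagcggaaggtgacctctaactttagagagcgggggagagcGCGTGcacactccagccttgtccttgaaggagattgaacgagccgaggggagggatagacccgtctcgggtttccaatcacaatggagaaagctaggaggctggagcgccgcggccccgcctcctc
The Ldha window held 3 separate stretches with ACGTG, and 2 of them were the E-box CACGTG, which reads ACGTG on both strands. Pgk1 and Hk2 held 2 stretches each and no E-box. Ldhb held no ACGTG and 1 GCGTG. Of all 32851 promoter windows of this length in the table, 16.6% held ACGTG, 28.2% held GCGTG and 6.02% held CACGTG. Among the 12 windows of the 8 measured genes, 5 held ACGTG: those of Pgk1 and Hk2, 1 of 2 of Ldha and 2 of 3 of Aldoa, which overlap and share 1 stretch. GCGTG was in 5 of the 12 and CACGTG in 1. These matches are letters in a window and show no binding.

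The arrays differed in RNA quality and brightness. Degraded or partly copied RNA raises the ratio of a transcript's 3′ signal to its 5′ signal, and for the beta-actin controls it was 3.63 and 4.3 on the normoglycemic arrays, 15.2 and 15.5 on the diabetic arrays and 9.08 and 5.87 on the AAT-treated arrays. The control probe sets for Gapdh bear on a gene of the pathway itself. Their 3′ set gave 15903 and 11854 on the normoglycemic arrays, 12390 and 18542 on the diabetic arrays and 9332 and 13611 on the AAT-treated arrays, with all 3 groups overlapping. The 5′ set of the same transcript gave 17477 and 12535, 5039 and 4008, and 4034 and 17223 in the same order, so that diabetic fat lay below normoglycemic fat at the 5′ end. The set from the middle of the transcript did so too, at 17335 and 11352 against 5321 and 6464. Normoglycemic 1 and AAT-treated 2 had the brightest hybridisation controls. Across probe sets, arrays of 1 group correlated at 0.838 (normoglycemic), 0.902 (diabetic) and 0.845 (AAT-treated), while the highest value of all pairs, 0.926, was between diabetic 2 and AAT-treated 1. The adipocyte markers Adipoq and Fabp4 were at 15690 or more and 85600 or more on every array, while Lep ranged from 18.7 to 9408.

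Diabetic fat had a higher signal than normoglycemic fat for 6 of the 8 enzymes, with a median log2 difference of 0.55 against −0.06 over all 13058 genes tested, of which 46.4% lay above 0 and 53.6% below. Pgk1, Hk2 and Ldhb had both diabetic arrays above both normoglycemic ones, and Ldha had both below. None of the 8 passed the adjusted threshold of 0.05 in limma (0 of 13058 genes did, which is 0%). At an unadjusted p under 0.05 there were 2 of the 8, both higher, against 9.89% of all genes (5.27% higher, 4.62% lower). The groups were separate for 4 of the 8 (3 higher, 1 lower), against 44.7% of all genes (20.2% higher, 24.5% lower), so the share of separate groups was near that of the array as a whole. The median rested on diabetic 2: it was 0.04 without that array and 0.82 without diabetic 1.

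**Figure D1:**
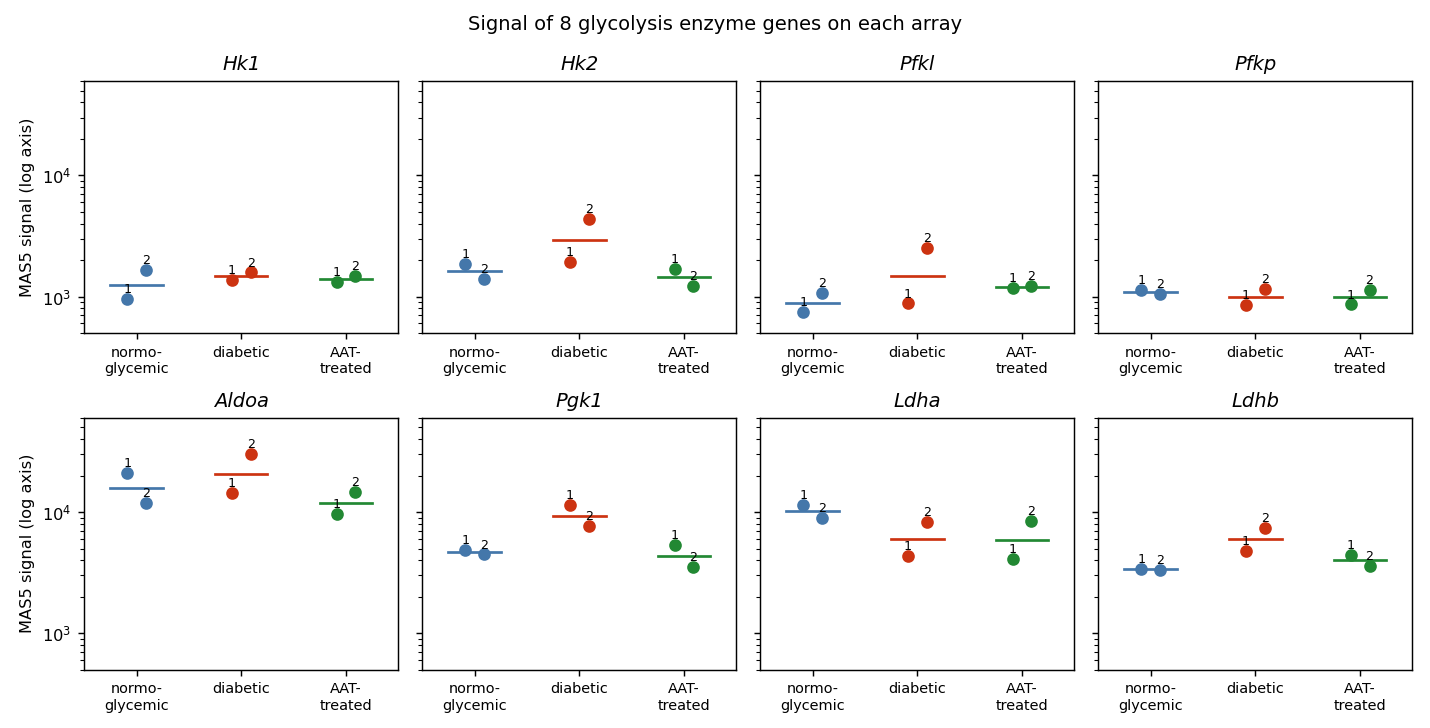
Deposited MAS5 signal (log axis) of the 8 measured glycolysis genes on each of the 6 arrays, with the replicate number beside each point and a bar at the geometric mean of the group. Pgk1, Hk2 and Ldhb are higher on both diabetic arrays than on both normoglycemic arrays, Ldha is lower, and diabetic 2 carries the highest points of Hk2, Pfkl, Aldoa and Ldhb.

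Among the entry steps, Hk2, which traps glucose inside the cell, had signals of 1870 and 1388 on the normoglycemic arrays, 1927 and 4393 on the diabetic arrays and 1687 and 1229 on the AAT-treated arrays. Diabetic 2 stood above the other 5 arrays, and diabetic 1 lay just above normoglycemic 1. On the log2(signal + 74) scale, which understates differences of weak genes, Hk2 differed by 0.83 ± 0.43 (SE, n = 2 arrays a group) between diabetic and normoglycemic fat (limma, unadjusted p = 0.0899, adjusted p = 0.553). Without diabetic 2 this difference was 0.25, and without diabetic 1 it was 1.41. Hk1, the widely expressed hexokinase, gave 960 and 1644, 1362 and 1580, and 1320 and 1470 in the same order. Its groups overlapped, and its difference was 0.21 ± 0.35, which was −0.16 without normoglycemic 1.

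Of the phosphofructokinases, Pfkl, the liver-type subunit, gave 744 and 1069 on the normoglycemic arrays, 876 and 2528 on the diabetic arrays and 1179 and 1232 on the AAT-treated arrays. Its difference of 0.70 ± 0.47 rested on diabetic 2 and was −0.03 without that array. Pfkp, the platelet-type subunit, gave 1138 and 1045, 847 and 1155, and 860 and 1133, with all groups overlapping and a difference of −0.13 ± 0.32. Aldoa, which cleaves fructose bisphosphate, gave 20887 and 11792, 14265 and 29903, and 9721 and 14591. It differed by 0.39 ± 0.49, and by −0.14 without diabetic 2 and −0.02 without normoglycemic 2. For these 3 genes the diabetic and normoglycemic arrays overlapped.

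Pgk1 had the largest difference of the 8 enzymes between diabetic and normoglycemic fat. Its signals were 4822 and 4465 on the normoglycemic arrays, 11354 and 7648 on the diabetic arrays and 5374 and 3548 on the AAT-treated arrays. Both diabetic arrays stood above the other 4. The difference was 0.99 ± 0.37 between diabetic and normoglycemic fat (limma, unadjusted p = 0.0255, adjusted p = 0.489), with a range of 0.71 to 1.28 when arrays were left out in turn.

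By the probe sets that stood for them, the lactate dehydrogenase chains went in opposite directions. Ldha, the chain that predominates in muscle and in glycolytic cells, gave 11533 and 8997 on the normoglycemic arrays, 4325 and 8260 on the diabetic arrays and 4114 and 8493 on the AAT-treated arrays. Both normoglycemic arrays were the highest of the 6, and diabetic 1 and AAT-treated 1 were the lowest. Its difference of −0.76 ± 0.47 (limma, adjusted p = 0.599) was −0.30 without diabetic 1 and −1.22 without diabetic 2. Ldhb, the chain that predominates in heart, gave 3373 and 3346, 4798 and 7353, and 4450 and 3602. It differed by 0.81 ± 0.34 (limma, unadjusted p = 0.0445, adjusted p = 0.499), by 0.51 without diabetic 2 and by 1.11 without diabetic 1.

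**Figure D2:**
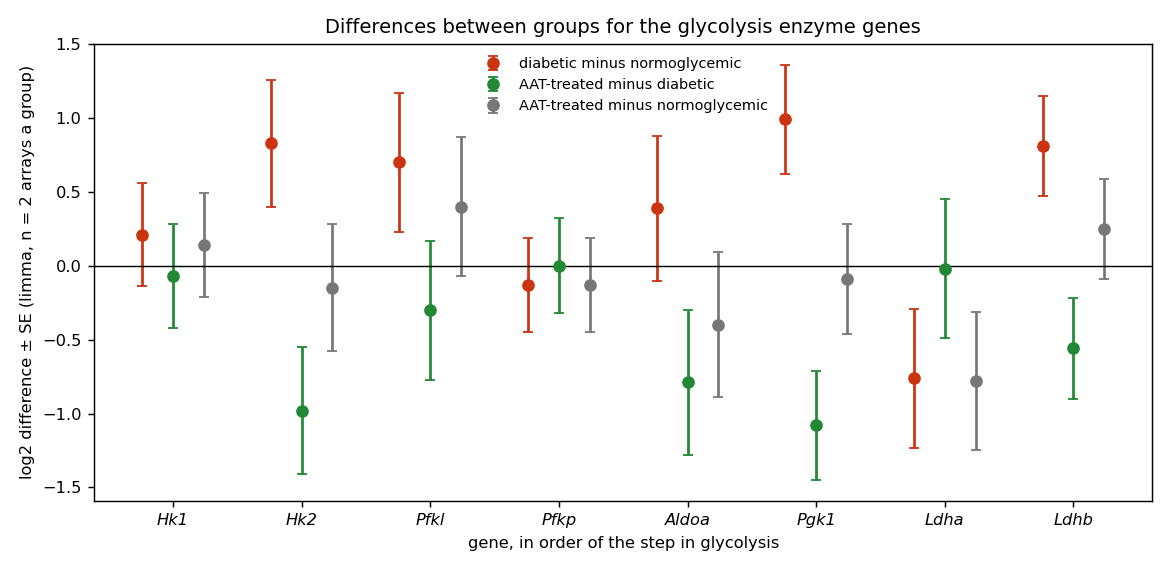
Log2 differences ± SE (limma, n = 2 arrays a group) of the 8 glycolysis genes, in the order of their steps, for diabetic minus normoglycemic, AAT-treated minus diabetic and AAT-treated minus normoglycemic fat. For Pgk1 and Hk2 the first comparison lies at 0.99 and 0.83 and the second at −1.08 and −0.98, and no difference shown passed the adjusted threshold.

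The ratio of isoenzymes within an array is free of any scaling between arrays, and shows unequal change rather than which chain moved. Centred on its mean over the 6 arrays, the log2 ratio of Ldhb over Ldha was −1.04 and −0.69 on the normoglycemic arrays, 0.86 and 0.55 on the diabetic arrays and 0.83 and −0.51 on the AAT-treated arrays. Diabetic fat was above normoglycemic fat by 1.57, with a pooled SD within groups of 0.58. This ratio used the brightest Ldhb probe set, which differed by 0.81. The other Ldhb probe sets differed by 0.21, 0.13 and −0.13, so the ratio would be smaller with any of them. The AAT-treated arrays were split, AAT-treated 1 at the diabetic level and AAT-treated 2 near the normoglycemic ones. For Hk2 over Hk1 the ratio was 0.46 and −0.68, 0.03 and 0.99, and −0.11 and −0.69, with diabetic and normoglycemic fat overlapping. For Pfkl over Pfkp it was −0.75 and −0.16, −0.14 and 0.89, and 0.24 and −0.07, a diabetic minus normoglycemic difference of 0.83 with a pooled SD of 0.50. That difference leaned on diabetic 2, since diabetic 1 was level with normoglycemic 2. The other Pfkl probe sets differed by 0.20 and 0.38, less than the 0.70 of the one used. With 2 arrays against 2, a two-sided exact permutation test cannot go below p = 0.333, which is the value for the Ldhb over Ldha and the Pfkl over Pfkp ratios between diabetic and normoglycemic fat.

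The split of the AAT-treated arrays in Ldha was also seen in the Gapdh controls. The 3′ to 5′ ratio of Gapdh was 0.91 and 0.946 on the normoglycemic arrays, 2.46 and 4.63 on the diabetic arrays and 2.31 and 0.79 on the AAT-treated arrays. The 3 arrays with a ratio under 1 had the highest Ldha signals, from 8493 to 11533, and diabetic 2, with the highest ratio, had 8260. The part of RNA quality in the Ldha result was not tested. Both diabetic arrays had a higher Gapdh ratio than both normoglycemic arrays, as they had for beta-actin, at 15.2 and 15.5 against 3.63 and 4.3. For every gene, a difference between these groups thus cannot be told apart from one of RNA quality.

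**Figure D3:**
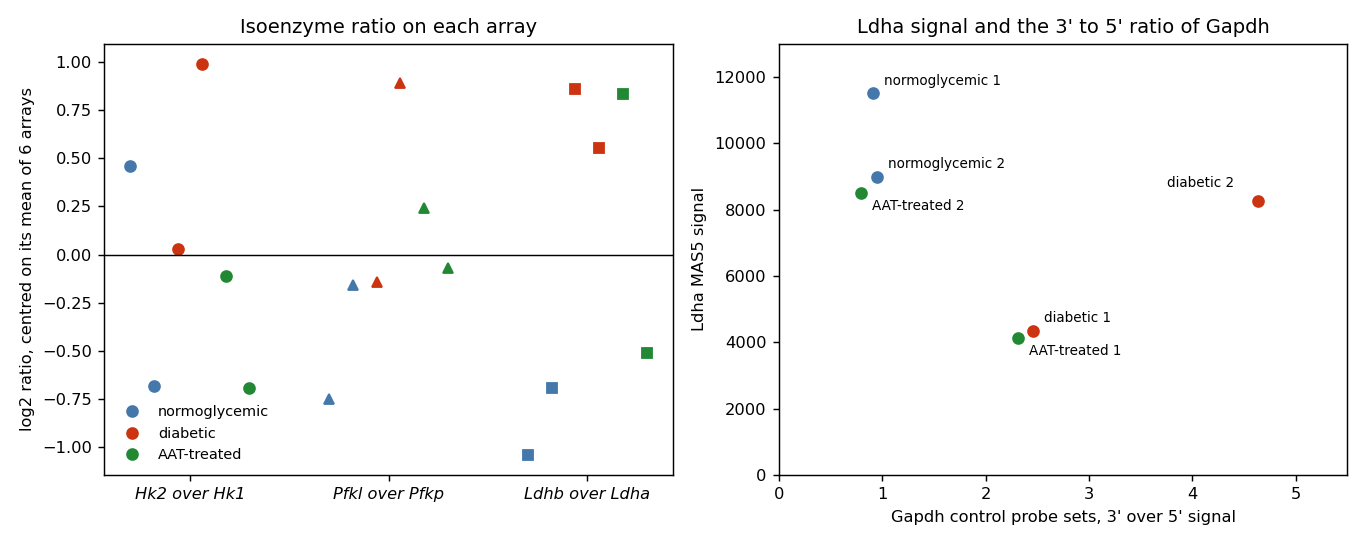
Left, log2 ratio of each isoenzyme pair on each of the 6 arrays, centred on its mean; right, Ldha signal against the 3′ to 5′ signal ratio of the Gapdh control probe sets, 1 point an array. Ldhb over Ldha is above 0 on both diabetic arrays and AAT-treated 1, and below 0 on the other 3, which are also the arrays with a Gapdh ratio under 1.

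Other probe sets of the same genes did not all repeat these differences. Pgk1 had 3 probe sets. A second one, 1439435_x_at, differed by 1.20 ± 0.36 between diabetic and normoglycemic fat (limma over all probe sets, unadjusted p = 0.00841, adjusted p = 0.425), close to the 0.99 of the brightest, 1438640_x_at. The third, 1417864_at, differed by 0.15 ± 0.33, with overlapping signals of 3419 and 4641 on the normoglycemic arrays and 4020 and 4850 on the diabetic arrays. The suffix x in a probe set name marks probes that can also bind other transcripts, and both probe sets with the larger difference carry it.

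For Ldhb the brightest probe set stood alone. The other 3 differed by 0.21, 0.13 and −0.13, all with overlapping groups, against 0.81 for the one that stood for the gene. The 5 probe sets of Aldoa ran from −0.09 to 0.75, and the 3 of Pfkl were all above 0, from 0.20 to 0.70. The second probe set of Pfkp differed by −0.54 ± 0.56. Hk2 and Ldha had 1 probe set each, as had Hk1 after the filter. With the mean of all kept probe sets in place of the brightest, the median of the 8 enzymes was 0.26 instead of 0.55.

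**Figure D4:**
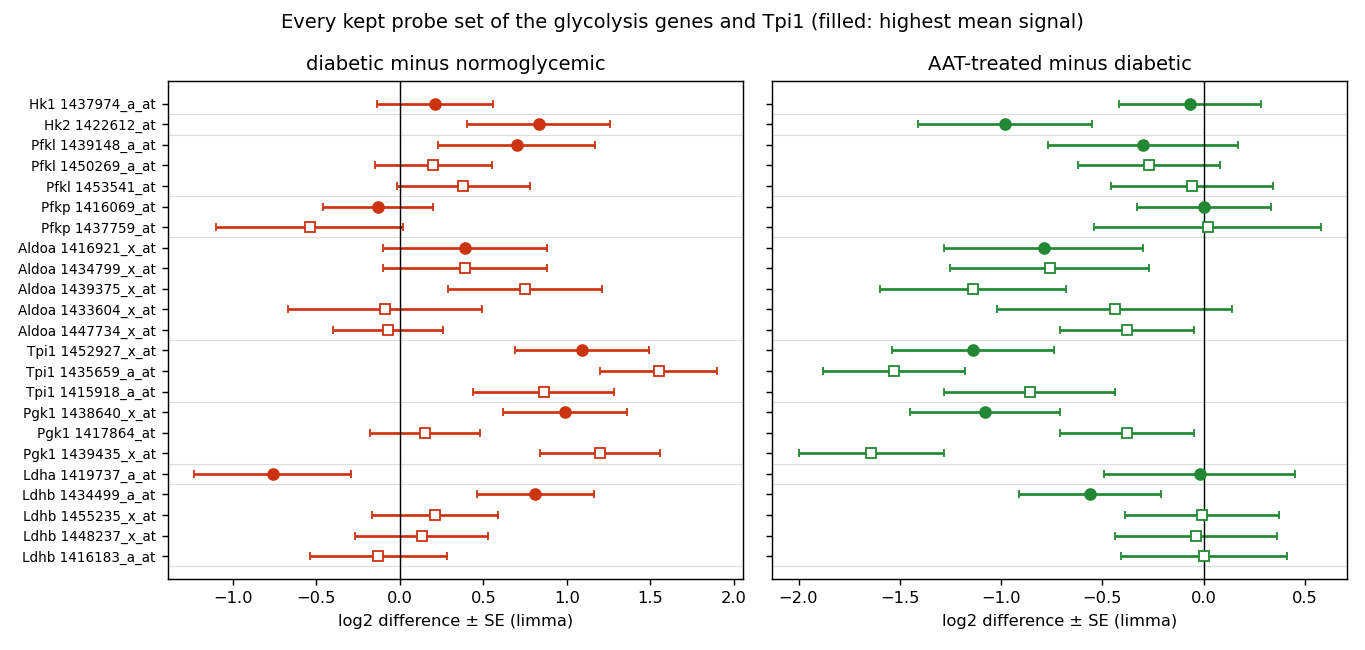
Log2 difference ± SE (limma) of every kept probe set of the glycolysis genes and of Tpi1, for diabetic minus normoglycemic (left) and AAT-treated minus diabetic fat (right), with filled circles for the probe set that stands for the gene and open squares for the others. The 3 probe sets of Tpi1 all lie above 0 on the left, from 0.86 to 1.55, while those of Pgk1 and Ldhb spread from 0.15 to 1.20 and from −0.13 to 0.81 on the left.

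Between AAT-treated and diabetic fat, 8 of the 8 enzymes lay below 0, although Ldha lay at 0.06 with quantile normalization and Pfkp at 0.01 with the mean of all kept probe sets. The median was −0.43 against 0.01 over all genes, of which 48.8% lay below 0 and 51.2% above. This comparison uses the same diabetic arrays as the one above, so the pair are not independent. None of the 8 passed the adjusted threshold (0 of all genes, 0%), 1 had an unadjusted p under 0.05 against 4.78% of all genes (2.95% higher, 1.83% lower), and 3 had separate groups, all lower, against 33.8% in either direction, 17.9% higher and 15.9% lower. Without diabetic 2 the median was −0.11 and 4 of the 8 lay above 0, without AAT-treated 1 the median was −0.38 and 3 lay above 0, and without diabetic 1 the median was −0.83.

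Pgk1 differed by −1.08 ± 0.37 between AAT-treated and diabetic fat (limma, unadjusted p = 0.0176, adjusted p = 0.961), and its other probe sets by −1.64 and −0.38, both with separate groups. Hk2 differed by −0.98 ± 0.43 (limma, unadjusted p = 0.0509, adjusted p = 0.961), by −0.40 without diabetic 2 and by −1.56 without diabetic 1. Ldhb differed by −0.56 ± 0.34, by −0.26 without diabetic 2 and by −0.86 without diabetic 1, and its other 3 probe sets by −0.04 to 0.00. Aldoa differed by −0.79 ± 0.49. Its 5 probe sets, which all carry the suffix x, were all below 0, from −1.14 to −0.38. The Aldoa difference was −0.26 without diabetic 2, −0.50 without AAT-treated 1 and −1.32 without diabetic 1. Pfkl differed by −0.30 ± 0.47, Hk1 by −0.07 ± 0.35, Ldha by −0.02 ± 0.47 and Pfkp by 0.00 ± 0.32 to 2 decimals. The direction of these last 4 turned when single arrays were left out.

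Between AAT-treated and normoglycemic fat the median was −0.11 against −0.03 over all genes, with 3 of the 8 above 0 (48% of all genes, with 52% below), and none passed the adjusted threshold (0 of all genes, 0%) or an unadjusted p of 0.05 (5.15% of all genes, 3.43% higher and 1.72% lower). Groups were separate for 3 of the 8, against 32.1% of all genes. Of these, Ldha differed by −0.78 ± 0.47, while Pfkl and Ldhb differed by 0.40 ± 0.47 and 0.25 ± 0.34. Ldha was at −0.26 without AAT-treated 1 and −1.29 without AAT-treated 2. Pfkl was at 0.16 and 0.64 without normoglycemic 1 and 2, and Ldhb at 0.10 and 0.40 without AAT-treated 1 and 2. Pgk1 differed by −0.09 ± 0.37 and Hk2 by −0.15 ± 0.43, and both were above 0 without AAT-treated 2.

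The steps between the 8 enzymes are filled by the isomerase Gpi1, the triose phosphate isomerase Tpi1, the mutase Pgam1 and the pyruvate kinase Pkm, of which Gpi1 was not analysed here. Tpi1 had signals of 4708 and 4295 on the normoglycemic arrays, 6862 and 13562 on the diabetic arrays and 4816 and 3936 on the AAT-treated arrays. Both diabetic arrays were above the other 4. It differed by 1.09 ± 0.40 between diabetic and normoglycemic fat (limma, unadjusted p = 0.0239, adjusted p = 0.482) and by −1.14 ± 0.40 between AAT-treated and diabetic fat (unadjusted p = 0.0199, adjusted p = 0.961). Its other 2 probe sets differed by 1.55 and 0.86, and by −1.53 and −0.86, with separate groups in each case. Without diabetic 2 the differences of Tpi1 were 0.60 and −0.65, and without diabetic 1 they were 1.58 and −1.62. Pkm, the last step to pyruvate, gave 1564 and 1551, 2097 and 3333, and 1860 and 1593, a difference of 0.74 ± 0.33 and then of −0.60 ± 0.33, which were 0.41 and −0.27 without diabetic 2. Pgam1 was level, at 2804 and 2842, 2541 and 3155, and 2467 and 3134, a difference of 0.00 ± 0.31 between diabetic and normoglycemic fat.

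A list of 38 other genes of glycolysis, glucose and lactate transport and pyruvate use had 30 members that passed the signal filter. Between diabetic and normoglycemic fat 14 were above 0 and 16 below, with a median of −0.13, and 0 passed the adjusted threshold. At an unadjusted p under 0.05 there were 4 higher and 4 lower of the 30, against 5.27% and 4.62% of all genes. Pdk4, the mitochondrial kinase that inhibits the pyruvate dehydrogenase complex, was at 4986 and 4492 on the normoglycemic arrays, 1828 and 1732 on the diabetic arrays and 10568 and 7964 on the AAT-treated arrays, with no overlap among the 3 groups. Pfkfb3, which makes the activator of phosphofructokinase, differed by −0.95 ± 0.30 and Slc16a1, a carrier of lactate and other monocarboxylates, by 0.95 ± 0.34. So the activator's enzyme was lower in diabetic fat, at 1814 and 1419 against 3048 and 3307, where Pgk1 and Tpi1 were higher.

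Bpgm, the mutase that makes bisphosphoglycerate in red cells, differed by −1.76 ± 0.59 between diabetic and normoglycemic fat and by 1.53 ± 0.59 between AAT-treated and diabetic fat. The first was −0.99 without normoglycemic 2 and −2.53 without normoglycemic 1, and the second was 0.83 without AAT-treated 1 and 2.23 without AAT-treated 2. Its signals were 992 and 3023, 473 and 451, and 2447 and 880. The summed signal of red cell markers moved with it. Of 7 markers listed, 5 had a probe set. They summed to 4074 and 9419 on the normoglycemic arrays, 1098 and 1280 on the diabetic arrays and 8831 and 1722 on the AAT-treated arrays. Bpgm and this sum were highest on normoglycemic 2 and AAT-treated 1. The 3 markers that passed the signal filter, Hbb-b2, Alas2 and Slc4a1, were below 0 in the first comparison and above 0 in the second. Hba-a1 and Epb42 did not pass it, and differed by −0.34 and 0.03 in the second. The other kept probe set of Hbb-b2 went the opposite way, at 0.22 and −1.85 against −3.26 and 1.90. That of Slc4a1 repeated its directions, at −1.72 and 1.05. The part of blood in the Bpgm result was not tested.

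Between AAT-treated and diabetic fat, 16 of the 30 were above 0 and 14 below, with a median of 0.03. Slc2a4, the insulin-regulated glucose transporter, was at 1494 and 1370 on the normoglycemic arrays, 2335 and 4046 on the diabetic arrays and 1944 and 776 on the AAT-treated arrays, a difference of −1.27 ± 0.46 in this comparison (limma, unadjusted p = 0.0244, adjusted p = 0.961). The difference was −0.64 without AAT-treated 2 and −1.89 without AAT-treated 1, and its other probe set differed by −0.52 with overlapping groups. Its diabetic arrays were the highest of the 6, as for Pgk1 and Tpi1. Pdk4 differed by 2.32 ± 0.32 (unadjusted p = 6.76e-05, adjusted p = 0.294). Between AAT-treated and normoglycemic fat 12 of the 30 were above 0, with a median of −0.06. Slc16a1 differed by 1.41 ± 0.34, Eno2, the enolase known from neurons, by 1.18 ± 0.43, Pdk4 by 0.94 ± 0.32 and Pfkfb3 by −0.76 ± 0.30 (limma, adjusted p = 0.786 or more for these 4).

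The pentose phosphate pathway branches off after hexokinase and yields NADPH. Of 6 kept genes, 4 were above 0 between diabetic and normoglycemic fat with a median of 0.07, and 6 were below 0 between AAT-treated and diabetic fat with a median of −0.57. Pgd, the phosphogluconate dehydrogenase, gave 2762 and 2545 on the normoglycemic arrays, 7692 and 15102 on the diabetic arrays and 3801 and 1958 on the AAT-treated arrays. It differed by 1.99 ± 0.45 and then by −1.95 ± 0.45 (limma, unadjusted p = 0.00184 and 0.0021, adjusted p = 0.459 and 0.6), more than any of the 8 glycolysis enzymes. All 4 of its probe sets were higher in diabetic than in normoglycemic fat, from 1.30 to 2.23, with separate groups. All but 1423706_a_at, at 1.30, carry the suffix x. Between AAT-treated and diabetic fat the other probe sets differed by −2.12, −0.52 (1438627_x_at) and −1.15 (1423706_a_at). By 1438627_x_at, AAT-treated fat was still above normoglycemic fat by 0.86, with separate groups. With arrays left out in turn, the 2 differences of the brightest probe set ran from 1.51 to 2.48 and from −2.43 to −1.47.

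**Figure D5:**
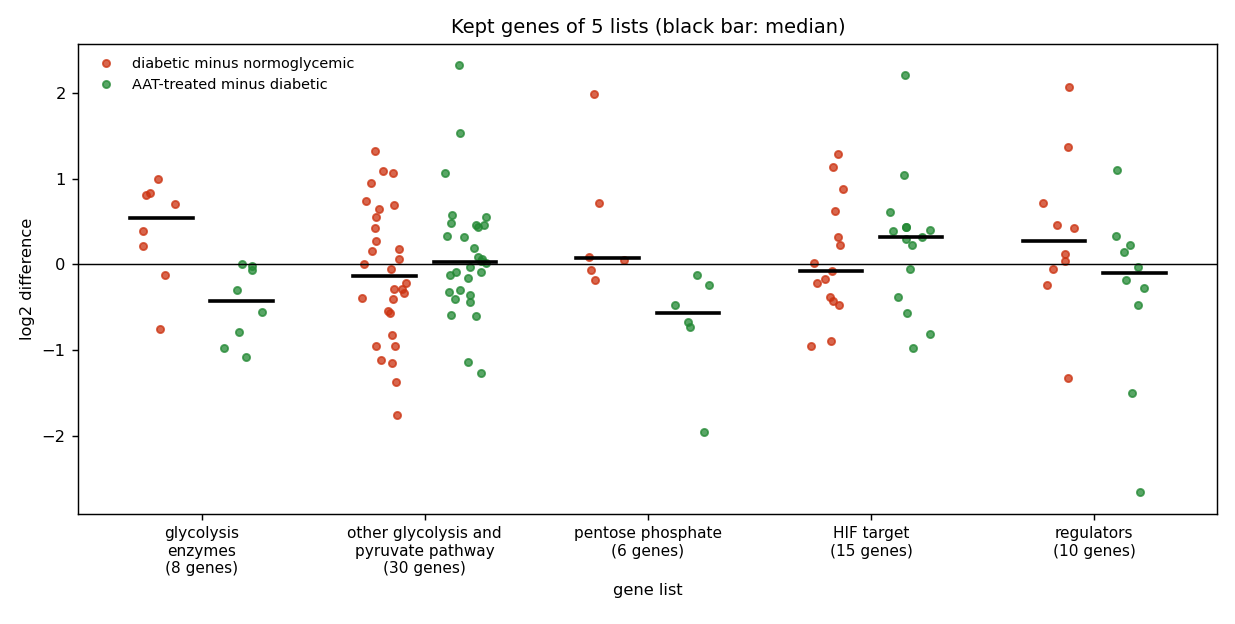
Log2 differences of the kept genes of 5 lists, 1 point a gene, with the median as a black bar, for diabetic minus normoglycemic and AAT-treated minus diabetic fat. The 8 glycolysis enzymes have medians of 0.55 and −0.43, while the 30 other pathway genes have medians of −0.13 and 0.03 and reach from −1.76 to 2.32.

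Known regulators of the enzymes did not share 1 direction. Mlxipl, whose product switches on genes in response to glucose, gave 1632 and 967 on the normoglycemic arrays, 5438 and 5628 on the diabetic arrays and 1620 and 389 on the AAT-treated arrays. It differed by 2.07 ± 0.57 and then by −2.66 ± 0.57 (limma, adjusted p = 0.46 and 0.6), the second being −1.73 without AAT-treated 2. Srebf1, the lipogenic factor that insulin induces, differed by 1.37 ± 0.32 and −1.50 ± 0.32. Myc went the other way, at 527 and 465, 155 and 150, and 343 and 492, a difference of −1.33 ± 0.37 and then of 1.10 ± 0.37. Of the 10 regulators 7 were above 0 in the first comparison, with a median of 0.27, and 4 in the second, with a median of −0.11. Foxo1, a factor restrained by insulin, differed by 0.95 ± 0.33 between AAT-treated and normoglycemic fat, while its other probe sets differed by 0.40 and −0.31.

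HIF targets outside glycolysis were also divided. Of 15 kept genes 7 were above 0 between diabetic and normoglycemic fat, with a median of −0.08, and 10 were above 0 between AAT-treated and diabetic fat, with a median of 0.32. Bnip3, a mitochondrial autophagy factor, was at 38287 and 32013 in normoglycemic and at 16232 and 20196 in diabetic fat, a difference of −0.95 ± 0.40, the same direction as Ldha. Higd1a, a small mitochondrial protein, differed by 1.14 ± 0.37 and then by −0.98 ± 0.37, the same directions as Pgk1, although its other probe set differed by 0.04 and −0.02. Mxi1, which opposes MYC, and Ddit4, which restrains mTORC1, were higher in AAT-treated than in diabetic fat by 1.04 ± 0.44 and 2.21 ± 0.38, with Mxi1 at 0.45 without AAT-treated 2 and 1.64 without AAT-treated 1. Between AAT-treated and normoglycemic fat Ddit4, Plod2 and P4ha2 differed by 1.99 ± 0.38, 1.28 ± 0.46 and 1.59 ± 0.63, the last a pair of collagen hydroxylases. The other probe set of Plod2 differed by 0.26.

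Markers of other cell types were read beside these values. The summed signal of the 7 macrophage markers was 5922 and 5802 on the normoglycemic arrays, 12818 and 25694 on the diabetic arrays and 14356 and 9564 on the AAT-treated arrays, so it was highest on diabetic 2, as were Hk2, Pfkl, Aldoa, Ldhb and Tpi1. All 7 were above 0 between diabetic and normoglycemic fat, and their part in these results was not tested. Skeletal muscle, which is rich in glycolytic enzymes, had summed marker signals of 2559 and 2898 on the normoglycemic arrays, 1598 and 1797 on the diabetic arrays and 5351 and 1394 on the AAT-treated arrays. Of its 9 markers 4 passed the signal filter, with 2 above 0 and 2 below between diabetic and normoglycemic fat. The fast myosin Myh4 was at 79.3 or less on all 6 arrays, while Myh1 was at 279 on diabetic 1 and 2659 on AAT-treated 1. The part of muscle was not tested. The 6 smooth muscle markers were above 0 in AAT-treated against diabetic fat, with a median of 3.01. The adipocyte markers summed to 458973 and 271888 on the normoglycemic arrays, 177264 and 292651 on the diabetic arrays and 175785 and 286322 on the AAT-treated arrays, with overlapping groups, and Fabp4 was the largest term of each sum. Of the 6 genes measured, Adipoq, Lep, Lipe and Retn were highest on diabetic 2, and Fabp4 and Cidec on normoglycemic 1. Adipoq was nearly equal on diabetic 2 and normoglycemic 2, at 48984 and 48729. The mean log2 level of the list was 15.01 on diabetic 2 against 13.13 to 14.35 on the other 5. That lead rested on Lep, at 9408 on diabetic 2 and from 18.7 to 2252 elsewhere. The median of the glycolysis enzymes rested on the same array, and the part of adipocytes in the result was not tested.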

How the data were processed

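The authors hybridised fat RNA of 6 NOD mouse samples, isolated in Trizol and biotin-labelled per the labels' protocols, to 1 array each. They deposited an intensity (a linear MAS5 signal, named in the submitters' processing notes; its version is not stated in the sources used here) for 45101 probe sets. MAS5 subtracts background and rescales each array; without the lowest and highest 2% of values the mean was 500 on every array, and this scaling was kept. Arrays have no read depth, and their number limits the precision.

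Probe sets were named from the platform annotation through RefSeq gene identifiers (34945 with 1 symbol, 932 with several and 9160 with none, the last 2 kinds left out; 34741 matched). Signals were taken as log2(signal + 74), the 25th percentile. Probe sets with a mean above 164, the 40th percentile, were kept, and the brightest stood for its gene. Differences were fitted with limma 3.58.1 in R 4.3.3 (3 group means, eBayes with trend, 2-sided, Benjamini-Hochberg over 13058 genes), with 3 residual and 5.37 prior degrees of freedom. A second fit covered 22101 probe sets. The fit was tested on simulated data.

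The genes, lists and tests were chosen with earlier results of these data known. All 8 measured glycolysis genes, Tpi1, Pgam1 and Pkm are given; of each further list, up to 4 genes a comparison with the smallest unadjusted p under 0.05 are named. Marker lists were adipocyte, skeletal and smooth muscle, red cell, macrophage, T cell, B cell, endothelium and mesothelium. Alternatives varied the pseudocount, filter, scaling, probe set choice, variance prior, block and arrays. Promoter windows came from RefSeq's GRCm38.p6 table, cut to the bases before the start.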

Additional observations from a re-analysis of the deposited data

How the results depend on the processing

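No enzyme passed the adjusted threshold under any alternative. Counts of genes past it differed from 0 in AAT-treated against diabetic fat with no filter (1) and in AAT-treated against normoglycemic fat when arrays were left out in turn (0 to 3, the 3 without normoglycemic 2). The cause was not tested. Quantile normalization put 1 enzyme above 0 in AAT-treated against diabetic fat (Ldha at 0.06), as did the mean of all kept probe sets (Pfkp at 0.01). Pgam1 turned to −0.07 in diabetic against normoglycemic fat with quantile normalization and to 0.01 in AAT-treated against normoglycemic fat with median centring.

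Leaving out each array in turn, the median of the 8 enzymes ran from 0.04 to 0.82 in diabetic against normoglycemic, −0.83 to −0.11 in AAT-treated against diabetic, and −0.17 to 0.06 in AAT-treated against normoglycemic fat, and the number above 0 from 4 to 7, 0 to 4 and 3 to 5. A lone array of a group is assumed to vary like the other groups. Differences that turned ran, in diabetic against normoglycemic fat, from −0.16 to 0.58 (Hk1), −0.03 to 1.43 (Pfkl), −0.34 to 0.08 (Pfkp), −0.14 to 0.93 (Aldoa) and −0.15 to 0.16 (Pgam1). In AAT-treated against diabetic fat they ran from −0.17 to 0.03 (Hk1), −1.02 to 0.43 (Pfkl), −0.21 to 0.20 (Pfkp), −0.53 to 0.50 (Ldha) and −0.19 to 0.14 (Pgam1). In AAT-treated against normoglycemic fat they ran from −0.23 to 0.51 (Hk1), −0.37 to 0.06 (Hk2), −0.32 to 0.05 (Pfkp), −0.81 to 0.01 (Aldoa), −0.38 to 0.21 (Pgk1), −0.19 to 0.10 (Tpi1) and −0.19 to 0.15 (Pgam1).

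Leaving out normoglycemic 1 and AAT-treated 2 together, the arrays with the brightest hybridisation controls, was chosen after seeing the data. It turned Hk1 to −0.16 and Pgam1 to 0.00 in diabetic against normoglycemic fat, and Hk1 to −0.30, Hk2 to 0.27, Pgk1 to 0.26 and Tpi1 to 0.16 in AAT-treated against normoglycemic fat. Reading each other probe set, also chosen after seeing the data, turned Aldoa to −0.09 (1433604_x_at) and −0.07 (1447734_x_at) and Ldhb to −0.13 (1416183_a_at) in diabetic against normoglycemic fat. It turned Pfkp to 0.02 (1437759_at) and Ldhb to 0.00 in AAT-treated against diabetic fat, and Pfkl to −0.07 (1450269_a_at) and Ldhb to −0.13 in AAT-treated against normoglycemic fat.

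The replicate numbers in the titles do not pair the arrays: deviations of same-numbered arrays correlated at 0.08, −0.50 and −0.12 across genes for the 3 pairs of groups. With the replicate number as a block, 0 enzymes passed the adjusted threshold in each comparison, and the differences are the same as without it by construction, since each number occurs once in each group. Genes at an unadjusted p under 0.05 then numbered 895, 453 and 503, against 1291, 624 and 672.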

Other observations

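Of the marker lists not set beside a result, the endothelial list had 5 of 5 genes above 0 between diabetic and normoglycemic fat, with a median of 0.57, and a summed signal of 1628 on normoglycemic 1 against 13457 on normoglycemic 2. The mesothelial list had 3 of 4 above 0 in that comparison, with a median of 0.08. Of the T cell markers 0 of 4 passed the signal filter, and of the B cell markers 2 of 4 did. Ighm was at 19419 and 3925 in AAT-treated fat against 153 and 315 in normoglycemic fat, a difference of 4.89. Ms4a1 was at 214 and 535 against 535 and 346, a difference of −0.27 with overlapping groups. The other kept probe sets of Ighm differed by −0.53 to 3.17 in this comparison, only the lowest being below 0. Some had overlapping groups, such as 1 at 887 and 9067 in AAT-treated fat against 1222 and 582 in normoglycemic fat.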
